A study of Rattus norvegicus with 6 samples.

Results

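Non-cycling microglia after pontine infarction were chosen by the measured counts of marker genes in single-cell RNA-seq libraries of rat brain. A cell barcode entered the gate with at least 500 unique molecular identifiers (UMIs, each standing for 1 captured mRNA molecule), at least 200 detected genes and at most 20% of its UMIs from mitochondrial genes. It also needed at least 40 UMIs of the complement genes C1qa, C1qb and C1qc together per 10000 UMIs. Barcodes with 2 or more of the 4 border macrophage genes Mrc1, Lyve1, Ms4a7 and Cxcl13, or with 3 or more of the 6 cell cycle genes Mki67, Top2a, Cdk1, Birc5, Ube2c and Cenpf, were left out. The gate held 394, 1227 and 634 cells of the 3 infarction libraries, which makes 2255 of the 19445 infarction cells that met the limits on UMIs, genes and mitochondrial share. All 6 libraries together held 38685 such cells among 44011 barcodes. The same gate held 456, 1182 and 1868 cells of the 3 sham libraries, and 389, 389 and 309 infarction cells passed its C1q and border limits but had 3 or more of the cell cycle genes.

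The infarction libraries came from Sprague Dawley rats with a pontine infarction and the sham libraries from sham-operated rats of the same strain, with 3 libraries each, and the series title places the tissue in the pons. All 6 libraries carry the age label of postnatal day 21, and they give no time between operation and sampling. For the infarction they speak of rats in the plural without tying a library to a rat, so the spread behind each p-value is that between libraries and may be technical. Cells were captured on the 10x Genomics 3′ v3.1 platform, with 56416475 to 69924334 UMIs per library.

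Microglia are the resident macrophages of the brain and the main source there of C1q, the first component of the classical complement pathway. In the undisturbed brain they express a homeostatic set that includes Tmem119, a surface protein used as a microglial marker, P2ry12, a purinergic receptor that senses ADP from damaged cells, and the fractalkine receptor Cx3cr1. After injury microglia are known to lower this set and to express chemokines, cytokines and lipid-handling genes, many of which infiltrating myeloid cells express as well.

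Tmem119, a microglial gene outside the gate, averaged 227 CPM (counts scaled to a common library total) in gated infarction cells and 3.64 CPM in the other infarction cells. C1qb averaged 5806 and 214 CPM in the same cells, which the gate itself fixed. Here and below, the other cells leave out the cycling microglia. They also leave out cells within the border limit that had 20 to 40 C1q UMIs per 10000. The 10 microglial markers other than those given with the rule summed to 585 to 918 CPM in gated infarction cells and 2114 to 2544 CPM in gated sham cells, with no marker at 0 in every infarction library and Siglech at 0 in every sham library. With the 6 markers of the rule added the sums were 13776 to 17377 CPM in gated infarction cells and 8734 to 11599 CPM in gated sham cells, and without Ccl4 alone they overlapped (8709 to 9854 CPM and 8012 to 10019.8 CPM). The share of kept cells inside the gate was 6.59%, 16.6% and 10.45% in infarction libraries and 7.57%, 18.2% and 27.8% in sham libraries, which overlap (exact two-sided permutation test, p = 0.4; the smallest p for 3 against 3 libraries is 0.1). That share depends on the denominator: without mural and choroid or ependymal cells it averaged 11.3% in infarction libraries and 53.7% in sham libraries, a difference of -42.4 percentage points (exact p = 0.1), against -6.64 with all kept cells. The median gated cell had 8525, 3369 and 4646.5 UMIs in infarction libraries and 5445.5, 5586.5 and 5385.5 UMIs in sham libraries. Its mitochondrial share was 6.69%, 7.69% and 7.30% in infarction libraries and 5.09%, 5.21% and 5.20% in sham libraries, without overlap (exact p = 0.1). Libraries shared 8 to 21 barcodes per pair, of which at most 1 per pair was a gated cell in both.

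RNA of other cells differed between the gated groups, and its part in the comparisons was not tested. The summed level of 10 smooth muscle and pericyte markers was 4.10 to 8.97 CPM in gated infarction cells and 3140 to 5084 CPM in gated sham cells. The 7 choroid plexus and ependymal markers summed to 2.65 to 7.72 CPM in gated infarction cells, where Kl was at 0, and to 409.8 to 5905 CPM in gated sham cells. The 12 neutrophil markers summed to 508 to 579 CPM in gated infarction cells and 49.99 to 104 CPM in gated sham cells, with Ltf, a neutrophil granule gene, at 0 in every library of both. The 15 measured markers of infiltrating monocytes or macrophages summed to 3536 to 3786 CPM in gated infarction cells and 3886 to 5183 CPM in gated sham cells. Lyz2, which microglia also express, led the list in both, with means of 2056 and 3013 CPM. Other members, such as Gpnmb, Fabp4 and Vcan, went the other way. With each cell thinned to 2000 UMIs they were found in 43.6%, 3.88% and 2.79% of gated infarction cells on average. In gated sham cells the shares were 1.34%, 0.0819% and 0.232%.

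Besides C1qb the rule came with 5 marker genes, whose levels chose the cells' label and are given as a description with no test. Ccl4, a chemokine that attracts immune cells, had 8848, 4506 and 5369 CPM in the 3 infarction libraries and 1724, 711 and 1569.7 CPM in the 3 sham libraries. Cd83, a surface protein of activated antigen-presenting cells, had 1432, 1027 and 1452 CPM in infarction libraries and 693, 362 and 651 CPM in sham libraries. Ch25h, the enzyme that makes 25-hydroxycholesterol, had 934, 734 and 935 CPM in infarction libraries and 409.7, 290.5 and 428 CPM in sham libraries. All 3 genes were already present in gated sham cells, and their infarction libraries lay above every sham library. Over all genes tested below, the groups did not overlap for 65%. Tnfsf9, the ligand of the T cell co-stimulatory receptor Tnfrsf9, had 305, 197 and 226 CPM in infarction libraries and 6.73, 4.53 and 11 CPM in sham libraries. Gpr84, a receptor for medium-chain fatty acids, had 388, 448 and 384 CPM in infarction libraries and 278, 284 and 327 CPM in sham libraries. Of the 5 genes Tnfsf9 was the one near 0 in sham cells, and Gpr84 had the narrowest gap between the groups.

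The share of cells with at least 1 UMI was compared after each cell had been thinned to 2000 UMIs, so that every cell had the same depth. A Gpr84 UMI was found in 49.8% of gated cells as a mean over the 3 infarction libraries, against 0.680% of T cells and 5.13% of oligodendrocytes of those libraries, which should lack the gene. Ch25h was found in 54.7% of gated cells, 1.32% of T cells and 11.7% of oligodendrocytes, and Cd83 in 65.0%, 9.04% and 7.33% of them. Tnfsf9 was found in 21.9% of gated cells, 3.07% of T cells and 3.04% of oligodendrocytes. Ccl4 was found in 75.6% of gated infarction cells, but T cells make this chemokine too and had it in 38.5%, and oligodendrocytes in 30.9%. Ch25h and Cd83 were thus found in the larger part of the gated cells, and for the 4 genes other than Ccl4 the mean share in T cells and oligodendrocytes was at most 11.7%, with only 13 oligodendrocytes in each of 2 infarction libraries. The markers did not set the gated cells apart from cycling microglia of the infarction libraries. Those held Gpr84, Ch25h, Cd83, Tnfsf9 and Ccl4 in 46.5%, 62.3%, 65.9%, 29.8% and 78.2% of cells on average. Gated sham cells held the same genes in 44.3%, 42.3%, 46.5%, 1.10% and 33.7%.

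Promoters of the marker genes are shown because several of these genes, Ccl4 and Cd83 among them, are textbook targets of NF-kB, and 4 of the 6 genes had one in the RefSeq table of assembly GRCr8 (250 bases before to 50 bases after the gene's start). The motif GGGANTTCC was searched on both strands, a form chosen with the data in view, and it occurred in 548 of 33469 promoters of that table, which is 1.64%. The promoters of C1qb, at chr5:154407778-154408077 on the minus strand, and of Cd83, at chr17:21112628-21112927 on the minus strand, each held 1 match, printed in capitals on its reverse complement.
C1qb: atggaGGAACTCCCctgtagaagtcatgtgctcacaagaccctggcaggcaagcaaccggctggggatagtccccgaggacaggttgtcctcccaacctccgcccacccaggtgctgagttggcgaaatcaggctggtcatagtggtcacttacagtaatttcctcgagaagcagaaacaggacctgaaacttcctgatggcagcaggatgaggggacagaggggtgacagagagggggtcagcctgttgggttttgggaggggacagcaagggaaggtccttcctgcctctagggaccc
Cd83: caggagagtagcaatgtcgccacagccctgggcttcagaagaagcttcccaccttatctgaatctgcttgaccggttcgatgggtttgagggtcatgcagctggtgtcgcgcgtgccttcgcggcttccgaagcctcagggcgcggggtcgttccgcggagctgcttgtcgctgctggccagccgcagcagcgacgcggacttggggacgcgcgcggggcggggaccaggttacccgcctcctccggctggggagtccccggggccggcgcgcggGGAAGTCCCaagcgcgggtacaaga
The promoters of Gpr84 and Ch25h held no match. A match describes these letters and not a bound site. The level of C1qb, which has one, overlapped between the groups (5233, 6580.2 and 5928 CPM in infarction libraries and 5152, 4671 and 6015 CPM in sham libraries). C1qb is a gate gene that admitted the cells of both groups, so its level is a description and says nothing about the match.

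Fewer gated cells held Tmem119 or P2ry12 after infarction. Among gated cells with at least 2000 UMIs, thinned to 2000 UMIs, 118 of 343, 283 of 803 and 224 of 480 cells had a UMI of either gene in the infarction libraries, which is 34.4%, 35.2% and 46.7%. In the sham libraries the shares were 76.9%, 83.7% and 88.2%. The means were 38.8% ± 6.85 after infarction and 82.9% ± 5.64 in sham libraries (SD, n = 3 each), a difference of -44.2 percentage points, and the groups did not overlap (exact two-sided permutation test, p = 0.1, the smallest this design allows). With all UMIs of each cell the difference was -23.0 percentage points. Tmem119 was found in 34.7% of gated infarction cells and 77.7% of gated sham cells on average, against 5.6% of infarction oligodendrocytes, which should lack it.

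The shift covered several homeostatic genes at once. Of 9 homeostatic genes (Tmem119, P2ry12, Sall1, Siglech, Gpr34, P2ry13, Slc2a5, Crybb1 and Olfml3), none was found in 43.7%, 37.2% and 31.7% of thinned infarction cells and in 12.3%, 7.07% and 4.86% of thinned sham cells. Exactly 3 were found in 5.25%, 7.6% and 8.75% of infarction cells and 23.9%, 24.2% and 27.7% of sham cells. Siglech and Crybb1, which mark mouse microglia, were found in at most 0.292% of infarction cells and 0.109% of sham cells of any library, so at this depth these 2 genes did not mark the gated cells.

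**Figure D1:**
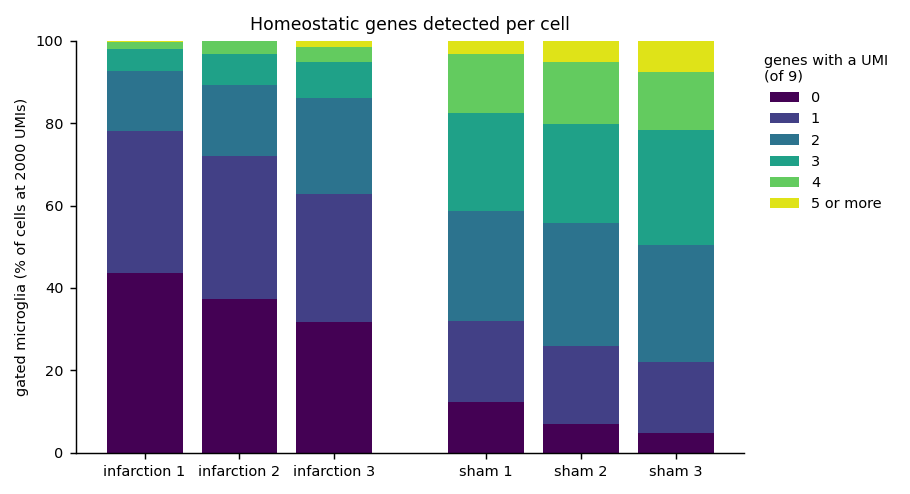
Stacked bars show the percent of gated cells, thinned to 2000 UMIs, with a UMI of 0, 1, 2, 3, 4 or at least 5 of 9 homeostatic genes, with 1 bar per library and infarction left of sham. The segment for 0 genes is 31.7% to 43.7% in infarction libraries and 4.86% to 12.3% in sham libraries.

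Counts of gated cells were then summed per library and compared between infarction and sham across 10059 genes with edgeR's quasi-likelihood test, calling genes at a Benjamini-Hochberg adjusted p under 0.05. Of these, 5656 were called (56.2%), with infarction libraries higher for 2774 genes (27.6%) and lower for 2882 genes (28.7%), and the median log2 fold change over all tested genes was -0.04. Per-library levels below are CPM scaled by TMM, and fold changes are log2 of infarction over sham with their standard error. A list's count is read against those 2 shares. The groups did not overlap for 6539 of the 10059 genes (65%), so a lack of overlap was common. The low-count filter could pass a gene on either group alone. A gene near 0 in sham cells could thus be called higher but hardly lower.

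Most of the homeostatic list fell. Of its 32 tested members 25 fell and 3 rose, with a median log2 fold change of -0.96. P2ry12 had 27.1, 46.5 and 53.0 CPM in infarction libraries and 164, 147 and 263 CPM in sham libraries (-2.18 ± 0.33, adjusted p = 0.00235). Tmem119 had 193, 202 and 298 CPM in infarction libraries and 751, 911 and 1029 CPM in sham libraries (-1.96 ± 0.20, adjusted p = 0.000129). Cx3cr1 had 152, 173 and 199 CPM in infarction libraries and 489, 485 and 503 CPM in sham libraries (-1.50 ± 0.11, adjusted p = 4.98e-06). Every infarction library was below every sham library for these 3 genes, and the groups did not overlap for 65% of all genes tested. The P-selectin ligand Selplg had 3.45, 6.67 and 7.46 CPM in infarction libraries and 40.05, 42.3 and 49.2 CPM in sham libraries (-2.89 ± 0.21, adjusted p = 5.97e-06). The ADP receptor P2ry13 fell by 2.17 on the log2 scale and the lysophosphatidylserine receptor Gpr34 by 1.53. The ectonucleotidase Entpd1 fell by 1.64 and the matrix protein gene Sparc by 1.94. Gated sham cells also carried smooth muscle and pericyte RNA, as given above, and its part in falls of this and other lists was not tested. Members that fell were not counted list by list against the other sham cells. Other members fell less, such as the colony stimulating factor receptor Csf1r (-0.87 ± 0.09) and the lipid receptor Trem2 (-1.12 ± 0.13).

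Transcription factors of microglia did not move one way. Of 21 tested, 10 rose and 6 fell, with a median of 0.26. Sall1, which maintains microglial identity, had 65.7, 123 and 104 CPM in infarction libraries and 193, 215 and 197 CPM in sham libraries (-1.04 ± 0.21, adjusted p = 0.00408). Mef2c and Maf fell as well (-0.87 ± 0.09 and -1.66 ± 0.17). Irf8, an interferon regulatory factor, and Tyrobp, a signalling adaptor, were members of the homeostatic list that rose (0.58 ± 0.10 and 0.37 ± 0.08), and Tfec, a relative of the lysosomal regulator Mitf, rose by 3.35 ± 0.44.

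Most chemokine genes rose. Of 14 tested without the marker Ccl4, 11 rose and none fell, with a median of 2.02. Members near 0 in sham cells, such as Ccl12, could pass the low-count filter on infarction counts alone and could hardly fall. Cxcl2, a ligand of the neutrophil receptor Cxcr2, had 2952, 1220.0 and 1754 CPM in infarction libraries and 336, 95.8 and 279 CPM in sham libraries (3.07 ± 0.65, adjusted p = 0.0155). Ccl3, which shares receptors with Ccl4, had 4036, 2707 and 3614 CPM in infarction libraries and 1577, 603 and 1368 CPM in sham libraries (1.55 ± 0.41, adjusted p = 0.0262). The lowest infarction library of either gene was above the highest sham library, and sham library 2 was the lowest of all for both. Both calls rested on few libraries: Ccl3 was lost without infarction library 1 (adjusted p = 0.0855), infarction library 3 (0.0746) or sham library 3 (0.0605), and Cxcl2 without sham library 3 (0.0512). Cxcl16, a membrane-bound chemokine that also takes up lipids, had 324, 193 and 238 CPM in infarction libraries and 81.5, 53.0 and 79.3 CPM in sham libraries (1.83 ± 0.24, adjusted p = 0.000888). The monocyte chemokine Ccl12 was near the floor in sham cells, with 136, 116 and 162 CPM in infarction libraries and 0, 3.16 and 5.0 CPM in sham libraries (5.29 ± 0.46, adjusted p = 0.000224). Ccl2, another monocyte chemokine, rose by 4.32 ± 0.75, although the other infarction cells held more of it than the gated cells (5011 against 788 CPM). Of the 11 chemokines that rose, 4 were higher in gated cells than in the other infarction cells, and 7 were lower. The interferon-induced Cxcl10 (0.40 ± 0.89, adjusted p = 0.732), the lymphocyte chemokine Ccl5 (0.33 ± 1.4, adjusted p = 0.865) and Pf4 (0.09 ± 0.39, adjusted p = 0.869) did not pass the test.

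Cytokine and growth factor genes changed less evenly. Of 23 tested, 12 rose and 2 fell, with a median of 0.99. Osm, an interleukin-6 family cytokine, had 185, 174 and 176 CPM in infarction libraries and 25.5, 22.1 and 33.9 CPM in sham libraries (2.69 ± 0.15, adjusted p = 1.58e-06). Il1rn, the interleukin-1 receptor antagonist, had 107, 47.5 and 62.4 CPM in infarction libraries and 1.77, 2.06 and 2.50 CPM in sham libraries (4.99 ± 0.41, adjusted p = 9.98e-05). The interleukin-1 beta gene Il1b had 908, 436 and 640.0 CPM in infarction libraries and 229, 79.1 and 225 CPM in sham libraries (1.90 ± 0.53, adjusted p = 0.0345). The agonist and its antagonist were thus both higher in every infarction library, and the antagonist differed by the larger fold. The Il1b call was lost without infarction library 1 (adjusted p = 0.0969), infarction library 3 (0.0822), sham library 1 (0.0573) or sham library 3 (0.0677), while Il1rn kept its call with each of the 6 libraries left out in turn. Csf1, a growth factor for microglia themselves, rose by 3.87 ± 0.46, the epidermal growth factor receptor ligand Hbegf by 2.54 ± 0.28, the stress-induced Gdf15 by 4.13 ± 0.45 and Il6 by 1.43 ± 0.23. Il6 was higher in the gated cells than in the other infarction cells (35.5 and 2.64 CPM), which leave out the cycling microglia. Il16, a lymphocyte attractant, fell to 10.6, 20.9 and 19.7 CPM in infarction libraries, against 67.3, 52.5 and 59.9 CPM in sham libraries (-1.78 ± 0.22, adjusted p = 0.000238), and Inhba, a subunit of activin A, fell by 4.62 on the log2 scale. Tumor necrosis factor did not pass the test, with 55.6, 36.7 and 48.5 CPM of Tnf in infarction libraries and 52.1, 12.6 and 32.8 CPM in sham libraries (0.60 ± 0.52, adjusted p = 0.373), and neither did Il1a (1.14 ± 0.59, adjusted p = 0.152) or Igf1 (0.64 ± 0.24, adjusted p = 0.0576). Il1a was called without infarction library 2 (adjusted p = 0.00166) and Igf1 without sham library 3 (0.000220), and DESeq2 called both (0.0238 and 0.00410).

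**Figure D2:**
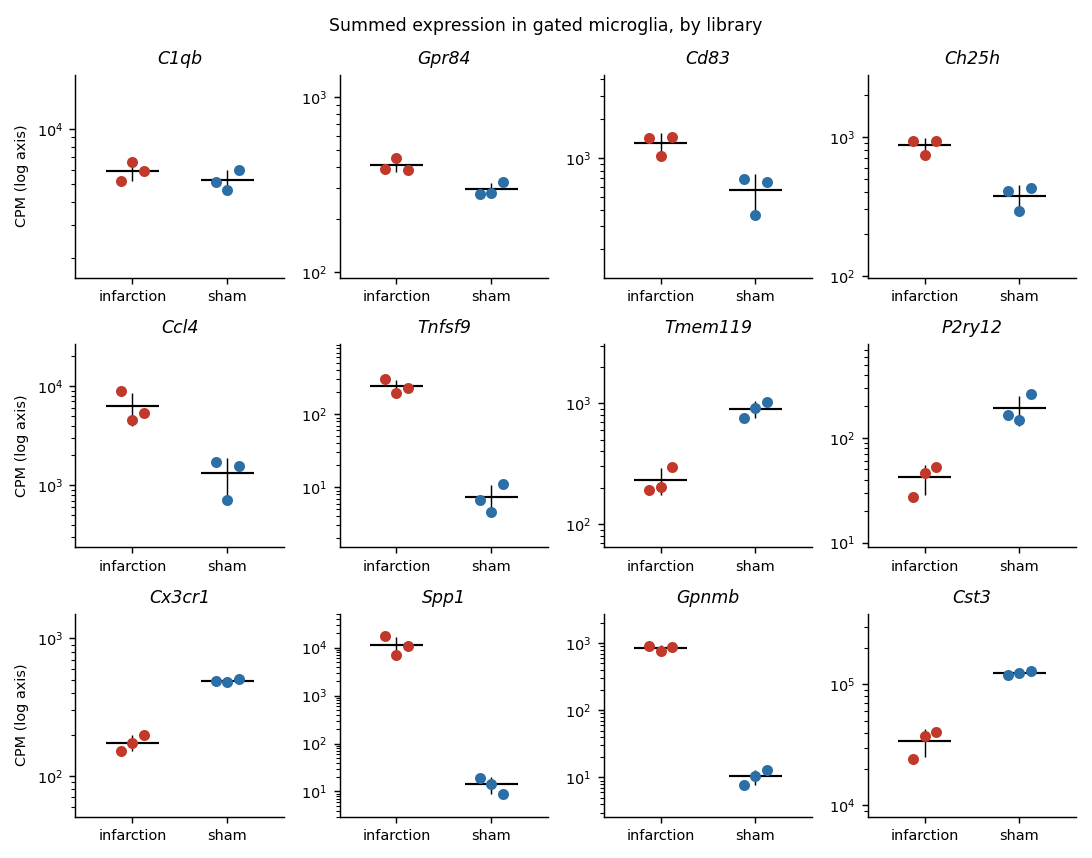
Points show the CPM of 12 genes in gated cells of each library on a log axis, with the mean (horizontal line) and SD (vertical line), infarction left of sham. Tmem119 lies at 193 to 298 CPM in infarction libraries and 751 to 1029 CPM in sham libraries, and Tnfsf9 at 197 to 305 CPM in infarction libraries and 4.53 to 11 CPM in sham libraries.

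Genes of the NF-kB feedback list rose in 13 of 21 tested members and fell in none, with a median of 0.94. Sod2, the mitochondrial superoxide dismutase, had 660.3, 522 and 402 CPM in infarction libraries and 62.4, 57.6 and 80.5 CPM in sham libraries (2.97 ± 0.22, adjusted p = 3.29e-05). Bcl3, a nuclear NF-kB cofactor, rose by 2.86 ± 0.34, the adhesion molecule Icam1 by 1.4 ± 0.21 and the inhibitor Nfkbib by 0.94 ± 0.16. Receptors for chemokines and cytokines split, with 7 of 29 higher, 13 lower and a median of -0.10. Cxcr4, the receptor of Cxcl12, rose to 42.8, 42.2 and 45.0 CPM in infarction libraries, against 4.61, 2.75 and 1.96 CPM in sham libraries (4.01 ± 0.21, adjusted p = 1.10e-06). The interleukin-4 receptor Il4r rose by 1.19 ± 0.11. Pattern recognition genes split as well, with 6 of 21 higher, 8 lower and a median of 0.05. Cd14, the co-receptor for lipopolysaccharide, had 847, 422 and 423 CPM in infarction libraries and 11, 11.8 and 15.6 CPM in sham libraries (5.41 ± 0.39, adjusted p = 0.000121), while its partner Tlr4 had a log2 fold change of -1.19 ± 0.15, adjusted p = 9.81e-05.

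Genes known from disease-associated microglia rose in 17 of 24 tested members and fell in 1, with a median of 1.48, and 10 of the 17 were lower in gated cells than in the other infarction cells. Spp1, osteopontin, had 17021, 6908 and 10528 CPM in infarction libraries and 19.5, 14.6 and 8.92 CPM in sham libraries (9.75 ± 0.61, adjusted p = 0.000163). Gpnmb, a lysosomal glycoprotein, had 919.5, 767 and 865 CPM in infarction libraries and 7.80, 10.4 and 13 CPM in sham libraries (6.27 ± 0.17, adjusted p = 2.08e-08). Lgals3, the carbohydrate-binding galectin-3, had 1283, 1013 and 923 CPM in infarction libraries and 36.9, 15.3 and 21.3 CPM in sham libraries (5.54 ± 0.35, adjusted p = 6.54e-05). All 3 genes were held by other infarction cells too. After thinning, Spp1 was found in 78.8% of gated cells, 39.5% of T cells and 54.5% of oligodendrocytes of the infarction libraries, and Gpnmb in 43.6%, 16.3% and 50.7% of them. Gpnmb averaged 836 CPM in gated cells and 3265 CPM in the other infarction cells. Itgax, an integrin subunit of complement receptor 4, was higher in the gated cells than in the other cells (47.8 and 29.0 CPM) and had 61.8, 47.1 and 37.3 CPM in infarction libraries and 6.73, 2.47 and 4.10 CPM in sham libraries (3.61 ± 0.31, adjusted p = 5.32e-05). Lipoprotein lipase, Lpl, behaved alike (55.1 CPM in gated cells and 14.9 CPM in other infarction cells), with a log2 fold change of 2.05 ± 0.42, adjusted p = 0.00758.

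Lipid uptake and efflux genes rose in 13 of 25 tested members and fell in 6, with a median of 0.64, and 10 of the 13 were lower in gated cells than in the other infarction cells. Those that rose included the fatty acid binding protein Fabp5 (5.59 ± 0.27), the scavenger receptor Msr1 (5.03 ± 0.18) and the lipid droplet protein Plin2 (3.04 ± 0.23). Cholesterol synthesis went the other way, with 16 of 25 lower, 2 higher and a median of -0.59. Squalene synthase Fdft1 had a log2 fold change of -1.64 ± 0.14, Hmgcs1 of -1.43 ± 0.14 and Msmo1 of -1.54 ± 0.14. Lysosomal and phagocytic genes were called in both directions, 11 higher and 14 lower of 34, with a median of -0.01. The tetraspanin Cd63 rose by 1.99 ± 0.11 and the proton pump subunit Atp6v0c by 1.59 ± 0.09, while the hexosaminidase subunit Hexa fell by 1.48 on the log2 scale.

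Glycolysis and hypoxia genes rose in 21 of 31 tested members and fell in 6, with a median of 1.02. Gapdh had 331, 287 and 263 CPM in infarction libraries and 68.8, 64.4 and 72.1 CPM in sham libraries (2.10 ± 0.11, adjusted p = 8.40e-07), and Pgk1 and Ldha differed alike (2.09 ± 0.11 and 2.02 ± 0.12). Hexokinase 2, at the entry of the pathway, fell to 313, 307 and 282 CPM in infarction libraries, against 776, 901 and 873 CPM in sham libraries (-1.50 ± 0.09, adjusted p = 2.05e-06). Of the 21 glycolysis genes that rose, 18 were lower in gated cells than in the other infarction cells. Nuclear genes of the respiratory chain rose in 31 of 36 members and fell in none, at a smaller median of 0.44. Antioxidant genes rose in 14 of 23 members and fell in 2, with a median of 0.64, and 11 of the 14 were lower in gated cells than in the other infarction cells. The peroxiredoxin Prdx1 had 1241, 1312 and 1085 CPM in infarction libraries and 268, 267 and 267 CPM in sham libraries (2.18 ± 0.09, adjusted p = 3.09e-07). Polyamine genes rose in 8 of 10 members and fell in 1, among them ornithine decarboxylase Odc1 (2.33 ± 0.15) and spermidine acetyltransferase Sat1 (1.8 ± 0.12).

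Other immune lists were called in both directions. Interferon response genes were higher in 5 of 34 members and lower in 5, with a median of 0.13, and all 5 that were higher had a lower level in gated cells than in the other infarction cells. Without the 2 clusters led by neutrophil or monocyte genes, described below, none was higher and 5 were lower. The left-out cluster led by S100a9 also had the interferon genes Ifit1bl and Ifit3 among its leading genes. Cells were left out of the infarction libraries only, so fewer higher members follow in part by construction. In cells that held Tmem119 or P2ry12, 1 of 31 was higher and 4 lower, and without infarction library 1 or infarction library 3 there were 2 higher. Class II presentation genes were higher in 3 of 12 and lower in 3, and class I genes were higher in 6 of 19 and lower in 5. Complement and Fc receptor genes were higher in 4 of 19 and lower in 8, with a median of -0.14. The central complement component C3 was among those that fell, with 249.6, 224 and 225 CPM in infarction libraries and 712, 927 and 845 CPM in sham libraries (-1.83 ± 0.11, adjusted p = 2.05e-06). Immediate early and heat shock genes were higher in 10 of 26 and lower in 9, with Jun lower (-1.28 ± 0.14) and the nuclear receptor Nr4a3 higher (2.79 ± 0.33). Iron genes were higher in 7 of 16 and lower in 5, purinergic and ion channel genes in 2 and 6 of 16, and matrix proteases in 5 and 4 of 15. Adhesion genes were higher in 13 of 22 and lower in 5, and galectins, S100 proteins and annexins in 11 and 4 of 25. All 11 of the last list that rose were lower in gated cells than in the other infarction cells.

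**Figure D3:**
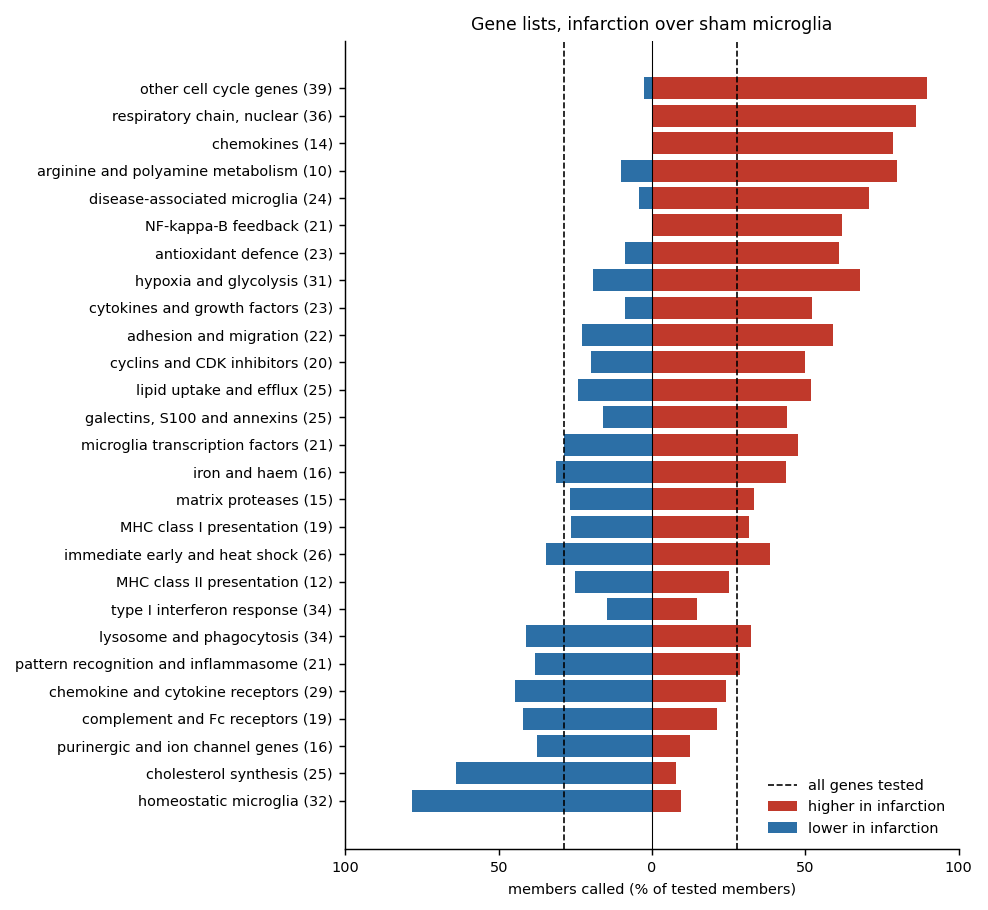
Bars show, for 27 gene lists, the percent of tested members called higher (right) and lower (left) in gated infarction cells than in gated sham cells, and dashed lines mark the percent over all 10059 genes tested. Chemokines reach 11 of 14 higher with none lower, and the homeostatic list 25 of 32 lower.

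Although the gate removed cells with 3 or more of 6 cycling genes, cell cycle genes outside those 6 mostly rose. They rose in 35 of 39 tested members and fell in 1, with a median of 2.75. Here too, members near 0 in sham cells could pass the low-count filter on infarction counts alone. The replication helicase genes Mcm6 and Mcm5 had 141, 146 and 118 CPM and 75.8, 70.3 and 55.0 CPM in infarction libraries, against 18.4, 19.1 and 16.8 CPM and 4.25, 3.71 and 3.66 CPM in sham libraries (2.91 ± 0.12, adjusted p = 2.67e-07 for Mcm6, 4.14 ± 0.17 for Mcm5). Of the 35 genes that rose, 32 were higher in gated cells than in the other infarction cells, which leave out the cycling microglia. None of the 6 gate genes was found in 61.4%, 69.7% and 74.1% of gated infarction cells and 95.2%, 95.2% and 94.3% of gated sham cells, at their own depths. With only those cells in both groups, a setting added after the data were seen, 24 of 29 tested cell cycle genes were still higher and 1 lower, with a median of 2.19. Cyclin D1, which acts before replication, rose to 408, 484 and 428 CPM of Ccnd1 in infarction libraries, against 259, 244 and 200.2 CPM in sham libraries (0.91 ± 0.11, adjusted p = 0.000106), and the list of cyclins and inhibitors had 10 of 20 higher and 4 lower.

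The named genes with the highest and lowest fold changes were also set against the other cells of the same libraries. Of the 12 highest, 11 had a lower level in gated cells than in the other infarction cells, and the exception was the DNA methylation factor Uhrf1. Mcemp1, a myeloid membrane protein, had 30.8, 18.9 and 27.1 CPM in infarction libraries and was at 0 in all sham libraries. G0s2, a lipolysis inhibitor abundant in neutrophils, had 199, 184 and 159 CPM in infarction libraries and 3.54, 3.30 and 2.68 CPM in sham libraries, and Slpi, a leukocyte protease inhibitor, averaged 219 CPM in gated cells and 2639.6 CPM in other infarction cells. Among the 12 lowest, Acta2, smooth muscle actin, had 0.492, 0.159 and 0.249 CPM in infarction libraries and 1261, 895 and 751 CPM in sham libraries, and the other sham cells averaged 9187 CPM. Ttr, the choroid plexus product transthyretin, had 0, 4.29 and 0 CPM in infarction libraries and 1788, 5711 and 387 CPM in sham libraries, and its call was lost without infarction library 2 (adjusted p = 0.0600), the one library with a count of it. Of all 2774 genes that were higher, 1797 had a higher level in gated cells than in the other infarction cells. Of all 2882 genes that were lower, 1323 had a level in gated sham cells no lower than in the other sham cells.

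Cells that still held Tmem119 or P2ry12 gave similar counts to the whole gate. They are part of the gate and held most of its UMIs, so their calls are not independent of those in all gated cells. With only such cells in both groups, at their full depth, 2597 genes were higher and 2691 lower after infarction, of which 2531 and 2561 were among those called in all gated cells. The chemokine list had 11 of 14 higher and the disease-associated list 17 of 24 higher and 1 lower. The homeostatic list, which includes the 2 genes that chose these cells, had 3 of 32 higher and 25 lower.

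Within the infarction libraries, gated cells with a Tmem119 or P2ry12 UMI at 2000 UMIs were set against those without one, keeping the library as a block. These 2 genes split the cells and were not tested. Of 7966 genes 848 were called (10.6%), 439 of them higher in cells with the 2 genes (5.51%) and 409 lower (5.13%), with a median log2 fold change of 0.01. Median depth was 8525, 5668 and 6289 UMIs in cells with them and 11255, 6218.5 and 6612.5 UMIs in cells without them. C1q had a median of 133, 158 and 166 UMIs per 10000 in cells with them and 116, 129 and 125 in cells without them.

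Other homeostatic genes went with Tmem119 and P2ry12. Of 29 tested, 19 were higher in cells with them and 1 was lower, with a median of 0.62. Ltc4s, leukotriene C4 synthase, had 264, 342 and 401 CPM in cells with them and 130.2, 186 and 162 CPM in cells without them (1.06 ± 0.08, adjusted p = 1.86e-09). Gpr34 had 65.8, 136 and 149 CPM in cells with them and 40.7, 70.6 and 72.2 CPM in cells without them (0.92 ± 0.10, adjusted p = 6.97e-07). Sall1 had 84.2, 162 and 140.2 CPM in cells with them and 56.0, 102 and 79.2 CPM in cells without them (0.70 ± 0.10, adjusted p = 1.82e-05). The higher value was in cells with them in each of the 3 libraries for these genes, and Csf1r (0.56 ± 0.05) went the same way.

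Immediate early and heat shock genes were higher in 14 of 25 members in cells with them and lower in 2, with a median of 0.44. Egr1, an early growth response factor, had 419, 466 and 499 CPM in cells with them and 300.4, 278 and 298 CPM in cells without them (0.66 ± 0.07, adjusted p = 2.10e-07), and Junb and Jun differed by 0.53 ± 0.05 and 0.51 ± 0.05. Chemokine and cytokine receptors were higher in 9 of 29 and lower in 2, with the interferon gamma receptor Ifngr1 (0.65 ± 0.07) among the higher. Among the 12 genes with the highest fold change were the circadian gene Per3 (1.22 ± 0.17), the potassium channel Kcnj5 (1.21 ± 0.18) and the sialic acid receptor Siglec5 (1.48 ± 0.20).

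Many galectin, S100 and glycolysis genes were lower in cells with Tmem119 or P2ry12. Of 24 galectins, S100 proteins and annexins 14 were lower and 1 higher, with a median of -0.96. Lgals3 had 752, 514 and 528 CPM in cells with them and 1515, 1187 and 1225 CPM in cells without them (-1.14 ± 0.05, adjusted p = 8.41e-14). Ccl7, one of 6 chemokines of 14 that were lower, had 109, 57.8 and 61.6 CPM in cells with them and 239, 136 and 166 CPM in cells without them (-1.26 ± 0.10, adjusted p = 1.19e-09). Glycolysis genes were lower in 13 of 27 members and higher in 1, and disease-associated genes lower in 10 of 24 and higher in none. Among the 12 genes with the lowest fold change, the lectin gene Clec10a had 0, 2.58 and 1.30 CPM in cells with them and 43.2, 44.0 and 48.9 CPM in cells without them. Crip1, a LIM domain protein, had 42.5, 31.0 and 41.5 CPM in cells with them and 258, 169 and 145 CPM in cells without them. Spp1 (-0.96 ± 0.24, adjusted p = 0.207), Gpnmb (-1.08 ± 0.22, adjusted p = 0.151) and Il1b (-0.05 ± 0.06, adjusted p = 0.714) did not pass the test. DESeq2 called Spp1 and Gpnmb lower in cells with them (adjusted p = 0.00212 and 0.000123), and at 4000 UMIs the calls of Clec10a and Crip1 were lost (0.163 and 0.767).

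Without infarction library 2 the counts were 118 higher and 95 lower genes, with homeostatic members at 17 higher and none lower, chemokines at 1 higher and 7 lower and galectins at 1 higher and 14 lower. Without the 2 clusters led by neutrophil or monocyte genes (148 cells, left out after the data were seen), 382 genes were higher and 354 lower. In that fit the log2 fold change of S100a6 was 0.04 (adjusted p = 0.940), against -1.69 ± 0.24 with all cells. That of Crip1 was -0.54 (adjusted p = 0.0300), against -2.29 ± 0.13. S100a6 and Crip1 were both leading genes of a left-out cluster, so their smaller difference follows by construction. Lgals3 stayed lower in that fit (-1.09) and so did Ccl7 (-0.62).

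The marker genes of the rule were present on both sides of this split and are given with no test. Ccl4 had 9839, 4569 and 6512 CPM in cells with Tmem119 or P2ry12 and 8360.0, 4516 and 4911 CPM in cells without them. Tnfsf9 had 320.0, 182 and 229.7 CPM in cells with them and 295, 204 and 236 CPM in cells without them, so that neither side was higher in all 3 libraries. Gpr84 was higher in cells with them in each library, with 458, 509.7 and 479 CPM in cells with them and 349, 414 and 332 CPM in cells without them.

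**Figure D4:**
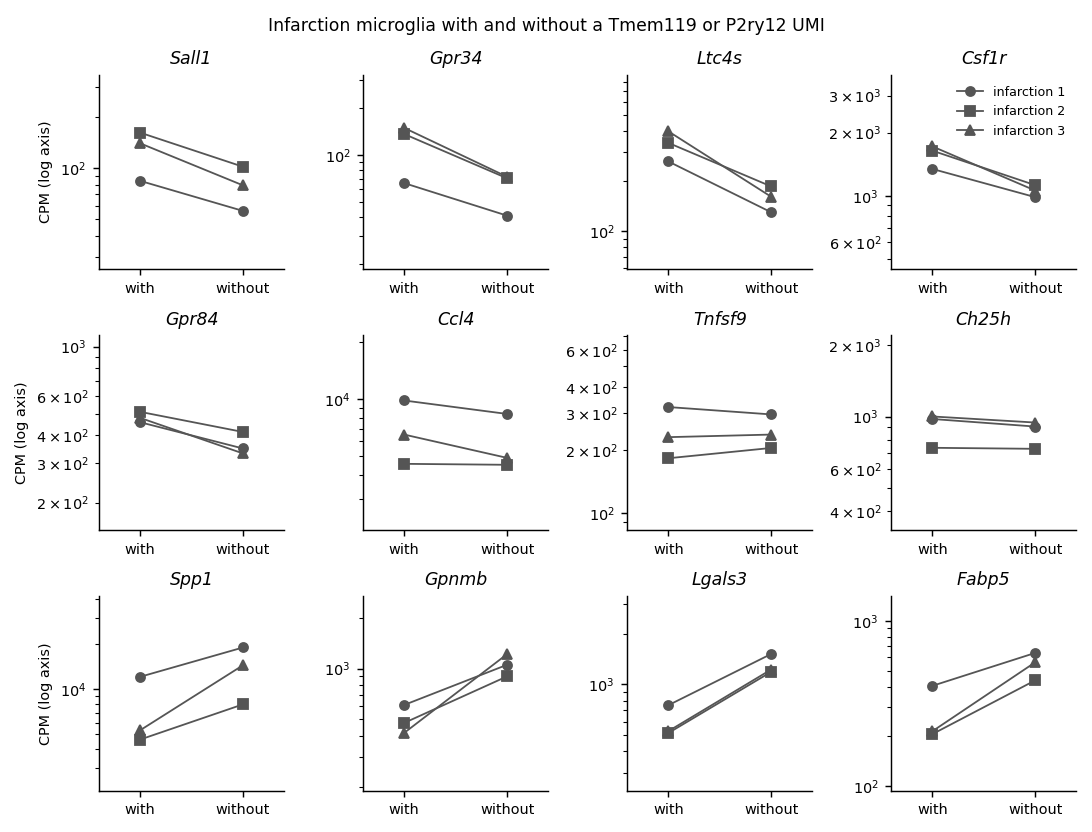
Lines join the CPM of 12 genes in gated infarction cells with (left) and without (right) a Tmem119 or P2ry12 UMI of the same library, on log axes. Lgals3 lies at 514 to 752 CPM in cells with them and 1187 to 1515 CPM in cells without them.

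Cycling microglia of the infarction libraries, which passed the same C1q and border limits, are the nearest other cells. With the library as a block, 2453 of 9400 genes were called (26.1%), with non-cycling cells higher for 1096 (11.7%) and lower for 1357 (14.4%). The 6 cell cycle genes made the split, and the other cell cycle genes, which are among the genes counted here, are not independent of it, so no test of theirs is given. Median depth was 8525, 3369 and 4646.5 UMIs in non-cycling cells and 20483, 14648 and 15028 UMIs in cycling cells, and the part of this gap in the comparison was not tested. Homeostatic genes were higher in 22 of 31 members and lower in none, with a median of 0.46. Tmem119 had 191, 197 and 298 CPM in non-cycling cells and 100.4, 98.8 and 122 CPM in cycling cells (1.07 ± 0.07, adjusted p = 7.16e-10), and Sall1 differed by 0.80 ± 0.09. Lysosomal genes were higher in 25 of 34 members and lower in none (median 0.34), and immediate early genes in 21 of 26 and none (median 0.45).

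Class II presentation genes were higher in 7 of 11 members in non-cycling cells and lower in 1. RT1-Db1, a class II beta chain, had 421, 331 and 523 CPM in non-cycling cells and 135, 139 and 149 CPM in cycling cells (1.57 ± 0.09, adjusted p = 1.31e-07), and RT1-Bb differed by 1.41 ± 0.08. With at least 80 C1q UMIs per 10000 both calls were lost, at adjusted p = 0.0776 for RT1-Db1 (log2 fold change 1.51) and 0.0677 for RT1-Bb (1.42). RT1 genes are alike in sequence, and how the authors' counting splits their reads is not given in the sources used here. Nuclear respiratory chain genes were lower in 18 of 36 members and higher in none, with a small median of -0.18, and Cox5a had 460.5, 493 and 434 CPM in non-cycling cells and 549.7, 645 and 600.3 CPM in cycling cells (-0.37 ± 0.06, adjusted p = 6.22e-05). Interferon response genes were higher in 14 of 34 and lower in none, and chemokines in 5 of 15 and none. Among the 12 genes highest in non-cycling cells were Clec10a (2.2 ± 0.17), Lrg1 (1.62 ± 0.16) and Il1r2 (1.53 ± 0.15), which are also among the leading genes of the clusters with neutrophil or monocyte genes, and the glial genes Gfap (1.53 ± 0.13) and S100b (1.34 ± 0.16). The part of such cells in the group counts was not tested. As a description, the spindle gene Prc1 had 8.77, 10.9 and 7.96 CPM in non-cycling cells and 184, 154 and 164 CPM in cycling cells.

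Clustering of the 2255 gated cells gave 7 clusters, which are described with no test. The largest held 602 cells (26.7%) and was led by Rgs16, Nfkbid, Nr4a1, Tnfsf9 and Ccl4. It made up 42.9%, 18.9% and 31.7% of the 3 libraries. A cluster of 447 cells, led by P2ry13, Sall1, Ltc4s and P2ry12, made up 8.12%, 23.0% and 21.0% of them. Ccl4 was at 9574 to 12795 CPM in the first of these clusters and 1745 to 2397 CPM in the second, and Il1b at 819 to 1152 CPM and 46.3 to 111 CPM. Tmem119 ranged over 223 to 329 CPM in the first and 288 to 567 CPM in the second, so the cluster highest in Ccl4 still carried it. Ccl3 was higher in the small cluster led by S100a9, at 6903 to 10461 CPM, than in the cluster led by Rgs16, at 5422 to 6093 CPM. Gpr84 did not separate them, at 446 to 546 CPM and 432 to 519 CPM.

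A cluster of 151 cells (6.70%) was led by Lpl, Cxcl14 and Spp1, with a median of 15926 UMIs. Its Spp1 level was 29290 to 42128 CPM, against 1517 to 3739 CPM in the cluster led by P2ry13, and its Sall1 level was 19.5 to 42.0 CPM, against 114 to 214 CPM. A cluster of 390 cells (17.3%) with a median of 2035 UMIs was led by the cycling genes Ube2c, Nusap1, Top2a and Cdk1. These genes were found in 18.7%, 11.3%, 13.6% and 29.0% of its cells, which goes against the name non-cycling for some of them. Another of 517 cells, with a median of 1472 UMIs, was led by the glial genes Gfap and Mbp. Clusters of 66 cells, led by S100a9 and G0s2, and of 82 cells, led by S100a6, Clec10a and Vcan, had doublet scores above 0.25 in 37.9% and 29.3% of their cells, against 0% to 2.65% in the other 5. Those 2 clusters also had the lowest median C1q, 82.4 and 78.3 UMIs per 10000.

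**Figure D5:**
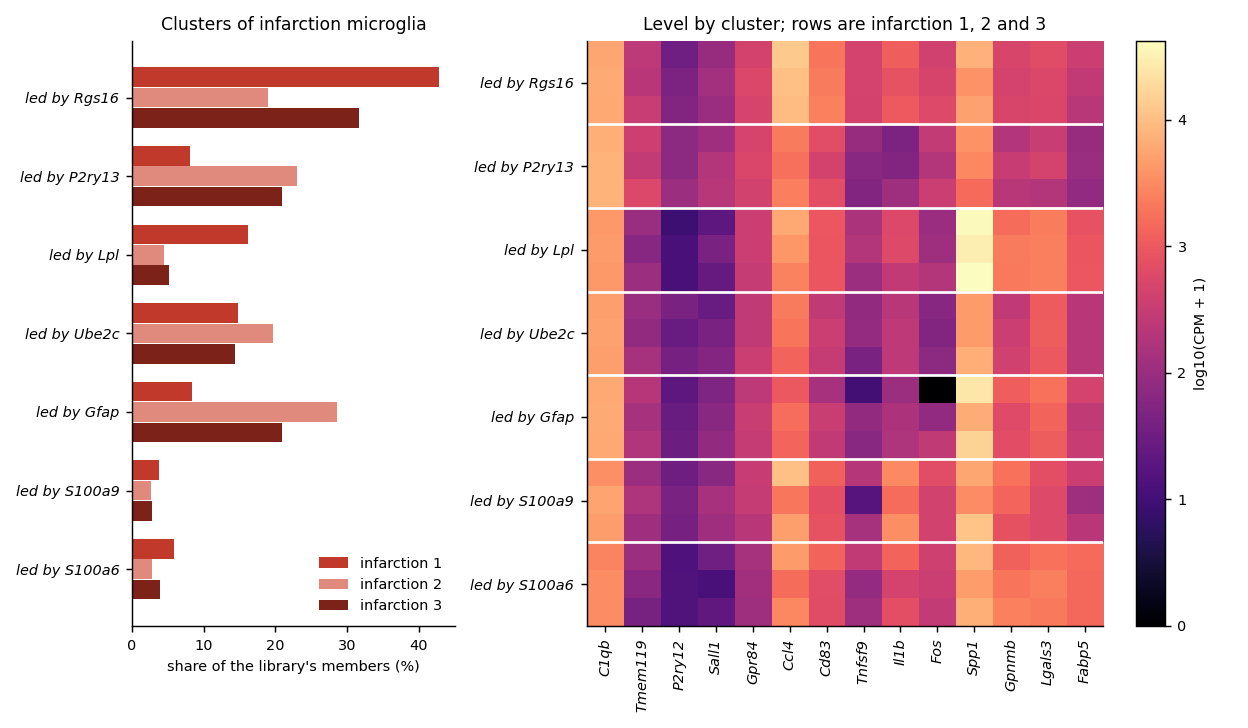
Left, the percent of gated cells of each infarction library in each of 7 clusters; right, log10 of CPM + 1 of selected genes per cluster. The cluster led by Rgs16 and Tnfsf9 holds 42.9% of infarction library 1 and 18.9% of library 2.

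The lower limit on C1q was crossed gradually. In infarction cells just below it, with 30 to 40 C1q UMIs per 10000 (128 cells), Gpr84 was at 56.6 to 177 CPM over the libraries and Gpnmb at 1082 to 3050 CPM. Just above it, with 40 to 50 (107 cells), Gpr84 was at 104 to 188 CPM and Gpnmb at 1382 to 2785 CPM. At 80 or more (1782 cells) Gpr84 was at 413 to 469 CPM and Gpnmb at 664 to 798 CPM. Cells next to the limit were thus lower in the microglial marker and higher in Gpnmb than the bulk of the gate.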

How the data were processed

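Per the labels' protocols, brain cells of 6 rat libraries were prepared on the 10x Genomics 3′ v3.1 platform. The submitters' processing notes name CASAVA 1.8, Cell Ranger 3.1.0 and Seurat 2.3.4, and the genome build is not given in the sources used here. The authors deposited raw UMI counts for 25399 genes per library, with no barcode under 500 UMIs, per the files themselves, and groups were taken from the labels. Background RNA was not removed from these counts, and doublets were kept in the main results, with a Scrublet score above 0.25 as an alternative.

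Counts of cells inside the gate were summed per library and tested with edgeR 4.0.16 in R 4.3.3 (TMM scaling, its filter on low counts, robust quasi-likelihood fit), with Benjamini-Hochberg adjustment over all genes tested and calls at 0.05. In the comparisons within infarction libraries both sums came from the same library, which was kept as a block. DESeq2 1.42.0 was an alternative. Shares of cells were compared over libraries by an exact permutation test with Python 3.11.15 and numpy 2.4.6, and cells were clustered with scanpy 1.11.5 (2000 variable genes, 30 components, 15 neighbours, Leiden resolution 0.5). Detection was read after thinning each cell to 2000 UMIs, which leaves out 51, 424 and 154 gated infarction cells and 83, 263 and 408 gated sham cells. Gate genes and the given markers were not tested. On simulated counts with known changes the infarction test recovered 89% of 100 genes changed by 1 and 98% of 100 genes changed by 2 on the log2 scale, among 9851 genes. It made 18 false calls among 9651 unchanged genes. The changed genes were drawn from those with higher counts, and far fewer changed than were called in the data. These rates therefore need not hold for the data.

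Named genes were the 12 at either end of the fold changes of a comparison, at a mean of at least 20 CPM in the higher group and without overlap, up to 4 called members of each of 27 gene lists, and members of the homeostatic, chemokine and cytokine lists. Lpl in the infarction comparison and Gpnmb within the infarction cells fall outside that rule and were named after their values were seen, and some genes are not reported here. The gate, markers and lists were chosen with earlier results of these data known. Alternatives were other scaling, count filters, limits of the gate, thinning to 4000 UMIs, and each library left out.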

Additional observations from a re-analysis of the deposited data

How the results depend on the processing

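Between infarction and sham, 2364 to 2897 genes were higher and 2260 to 3058 lower under 13 other settings, and 2435 to 2784 higher and 2406 to 2766 lower with 1 library left out. Keeping only genes no lower in gated cells than in the other cells of the group where they were higher left 1797 higher and 1323 lower, fewer by construction. The replicate numbers do not pair these libraries (correlations of 0.064, 0.115 and 0.019 between same-numbered libraries), and with a replicate block 2762 genes were higher and 2840 lower. Of 143 genes followed in this comparison, 132 kept direction and side of the threshold in every alternative run. S100a10 was lower (-0.29) without the clusters led by neutrophil or monocyte genes, against 1.14 with all cells. Genes that did not pass the test changed sign: Pf4 (0.09) was at -0.43 without doublets, -0.10 at 80 C1q UMIs per 10000 and -0.58 without those clusters. With 1 library left out Pf4 ranged over -0.37 to 0.31, Ccl5 (0.33) over -0.57 to 1.71 and Cxcl10 (0.40) over -0.13 to 1.15.

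Cells with and without Tmem119 or P2ry12 gave 118 to 361 higher and 95 to 354 lower genes with 1 library left out, fewest without infarction library 2. DESeq2 called 115 higher and 94 lower, no filter on low counts 389 higher and 638 lower, and no replicate block 15 higher and 22 lower. Of 102 genes followed, 11 kept their side of the threshold in every alternative. Without the neutrophil and monocyte clusters RT1-Ba was at 0.11 and S100a6, a leading gene of those clusters, at 0.0401. RT1-CE10 was at -0.0154 when any UMI in the full counts made the split. The cause of these changes was not tested. Il1b (-0.05, not called) was at 0.11 without those clusters, 0.00709 in cells with 0 of 6 cycling genes and -0.16 to 0.0296 with 1 library left out. Non-cycling against cycling cells gave 764 to 897 higher and 907 to 1183 lower genes with 1 library left out, 419 and 613 with DESeq2, and 342 and 690 with no replicate block, and 63 of 115 genes followed kept their side of the threshold in every alternative. The difference in the share with Tmem119 or P2ry12 was -41.5 to -48.1 percentage points with 1 library left out, and -34.2 at 4000 UMIs. The difference in the share of kept cells inside the gate was -1.69 to -11.8 percentage points with 1 library left out, -21.8 at no more than 10% mitochondrial UMIs and -42.4 without mural and choroid or ependymal cells in the denominator.

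With 3 libraries per group the permutation tests cannot go below p = 0.1. Cells below 2000 UMIs were not read for Tmem119 and P2ry12. Free RNA was not removed.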
